A study of Mus musculus with 12 samples.

Results

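The genes described here encode the machinery of oxidative phosphorylation, the respiratory chain and the ATP synthase of mitochondria. They were taken by symbol from the count table of a mouse brain study, as all entries whose name starts with Nduf, Sdh, Uqcr, Cox4 to Cox8 or Atp5, together with the mitochondrially encoded entries, whose names start with mt-. The rule found 115 of the 16482 named genes. Of these 99 are nuclear, with 45 in complex I, 7 in complex II, 9 in complex III, 19 in complex IV and 19 in the ATP synthase, and 16 are mitochondrially encoded. The ATP synthase set is every entry with an Atp5 name. Atp5sl was placed in it by symbol alone, which does not show that its protein belongs to that complex. Subunits, assembly factors, tissue-restricted paralogs and 4 entries with pseudogene names are among them. Membership was set by name, with no cut on a measured value, although the gene families were picked with earlier results of these data known.

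RNA came from whole brain of C57BL/6 mice. All PBS samples and all CBE+GZ-667161 samples were taken at postnatal day 40, whereas the CBE group held replicates 2 and 3 from day 34 and replicates 4 and 6 from day 40, with 4 samples in each group. CBE (conduritol B epoxide) is an irreversible inhibitor of acid β-glucosidase, the lysosomal enzyme that is deficient in Gaucher disease, so the model is chemical and carries no mutation. GZ-667161, an inhibitor of glucosylceramide synthase that lowers production of the enzyme's substrate, was given to mice that also received CBE. No group received GZ-667161 alone, and no source used here gives doses or schedules. The labels do not say that each sample was a separate mouse. The p-values therefore measure only the spread between these samples, which may be in part technical. Ages differed within the CBE group, and levels of Xist, a female marker given below, within the other groups. No group therefore came from a single mouse.

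As background, complexes I and II pass electrons from NADH and from succinate to ubiquinone, complex III passes them to cytochrome c, and complex IV passes them to oxygen. Complexes I, III and IV pump protons across the inner membrane as they do so, and the ATP synthase uses the proton gradient to make ATP. Most subunits are encoded in the nucleus, while a small set of core subunits, with the rRNAs and tRNAs that translate them, is encoded in mitochondrial DNA. Neurons rely heavily on this pathway to power ion pumping and synaptic transmission.

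Libraries were 3' tag libraries made with a bulk form of MARS-seq, and total counts ran from 1758446 to 6521257 per sample, lowest in the day 34 CBE samples. Markers of neurons, astrocytes and microglia were counted in all 12 samples. The summed level of 13 neuron markers was 7550.2 to 7679 CPM (counts scaled to the TMM library size, as edgeR gives them) in PBS, 5376 to 6403 in CBE and 6069 to 7227 in CBE+GZ-667161, and that of 10 microglia markers was 952 to 1085, 3823 to 5617 and 2275 to 4098. Of the neuron markers 8 were lower in CBE than in PBS by edgeR's quasi-likelihood test with adjusted p under 0.05, and 8 of the microglia markers were higher. The 9 astrocyte markers summed to 3808 to 4451 CPM in PBS, 5052 to 5302 in CBE and 4074 to 4574 in CBE+GZ-667161, so that CBE lay wholly above both other groups, and 5 of the 9 were called higher in CBE than in PBS. The 10 endothelial and pericyte markers summed to 342 to 402, 273 to 374 and 341 to 449 CPM, with 2 of the 9 tested called lower in CBE. The 9 oligodendrocyte markers summed to 6054 to 7535 CPM in PBS, 3117 to 6358 in CBE and 3806 to 8779 in CBE+GZ-667161. The 5 erythroid markers summed to 1964 to 4037, 1249 to 1734 and 1414 to 3910 CPM. Choroid plexus markers summed to 17.6 to 114, 66.6 to 532 and 20.9 to 343 CPM, so marker levels also varied widely within groups. In whole tissue fewer cells of a type and less RNA per cell cannot be told apart, and the part of these shifts in the values below was not tested. Xist, which marks female tissue, was at 7.96 to 25.7 CPM in 5 samples of the PBS and CBE+GZ-667161 groups and at most 0.555 in the other 7, all CBE samples included, so sex was not balanced between groups.

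As a whole the nuclear respiratory genes took a nearly constant share of the transcriptome, 3.88% to 4.65% of the counts of each sample. Their summed level was 40550.2, 46594, 42639 and 39640.3 CPM in the PBS samples (replicates 2, 3, 4 and 5). The CBE samples (replicates 2, 3, 4 and 6) held 38408, 39298, 44349 and 41989.6 CPM, and the CBE+GZ-667161 samples (replicates 2, 3, 4 and 5) 38474, 42463, 45339 and 40598 CPM. The 3 groups overlapped, with means of 42356 ± 3092, 41011 ± 2697 and 41718 ± 2913 CPM (SD, n = 4). The summed level of complex III had a mean of 3994 ± 354 CPM in PBS, 3620.5 ± 132 in CBE and 3679 ± 220.4 in CBE+GZ-667161, again with overlap. For complex II the means were 1123 ± 51.8 CPM in PBS and 1229 ± 90.7 in CBE. These sums are descriptions, with no test.

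**Figure D1:**
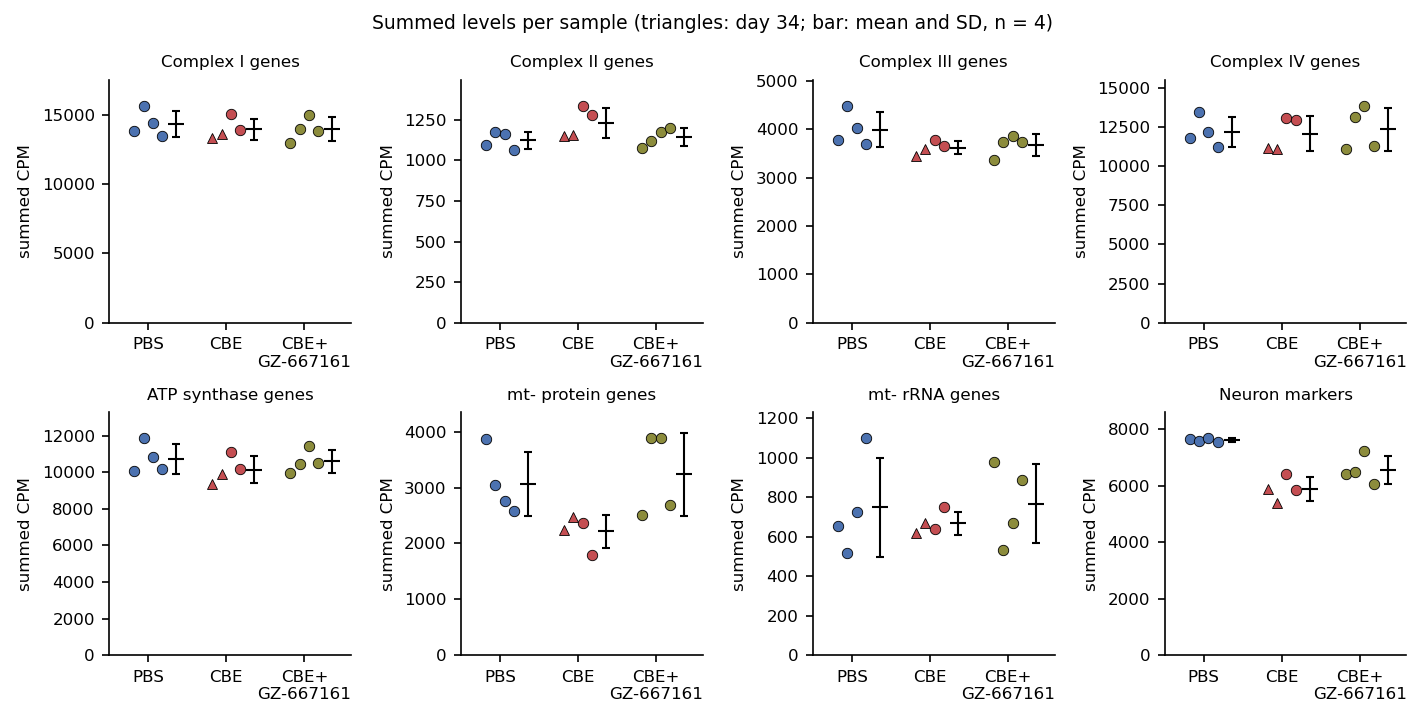
Summed CPM (vertical axes, from 0) of the genes of each nuclear complex, of the mt- protein and rRNA genes and of the neuron markers, by group (horizontal axes). Each point is 1 sample, triangles are the day 34 CBE samples, and bars give the mean and SD (n = 4). The nuclear complexes overlap between groups, while the mt- protein sum of every CBE sample (1799.9 to 2474 CPM) lies below every PBS sample (2588 to 3870.2 CPM).

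Between CBE and PBS few single genes were called, and without covariates all of those were nuclear and lower. With Xist as a covariate Uqcrh lost its call, and the mitochondrially encoded mt-Nd4 and mt-Cytb passed as lower. Of the 115 genes 100 had enough counts to be tested, and 5 of the 100 passed at an adjusted p under 0.05 by edgeR's quasi-likelihood test: Ndufaf2, Ndufb2, Atp5j2, Atp5d and Uqcrh. All genes tested gave 4.04% lower calls, so 5 lower calls in 100 is a share near the background. No respiratory gene was called higher, against 6.95% of all genes. At an unadjusted p under 0.05 none was higher and 12 were lower, beside 24.8% of all genes in either direction, and DESeq2 and limma-voom likewise called 0 higher and 5 lower. In 11 genes every CBE sample lay below every PBS sample, and in none above, where 7.00% and 8.61% of all genes did so.

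The median log2 fold change over the 100 genes was -0.045, with 59 below 0, beside -0.015 over all genes tested, of which 51.8% were below 0. By complex the median was -0.078 over 43 genes of complex I, 0.19 over 6 of complex II and -0.041 over 8 of complex III. It was -0.11 over 16 genes of complex IV, -0.039 over 17 of the ATP synthase and -0.14 over 10 mt- genes. Each of these medians was nearer to 0 than the change of any of the 5 genes that fell. The 15 untested genes, with 25 to 92 counts over all samples, were 4 with pseudogene names, 6 mt- genes and the nuclear Cox4i2, Cox7b2, Cox8b, Ndufa11 and Sdhaf3.

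**Figure D2:**
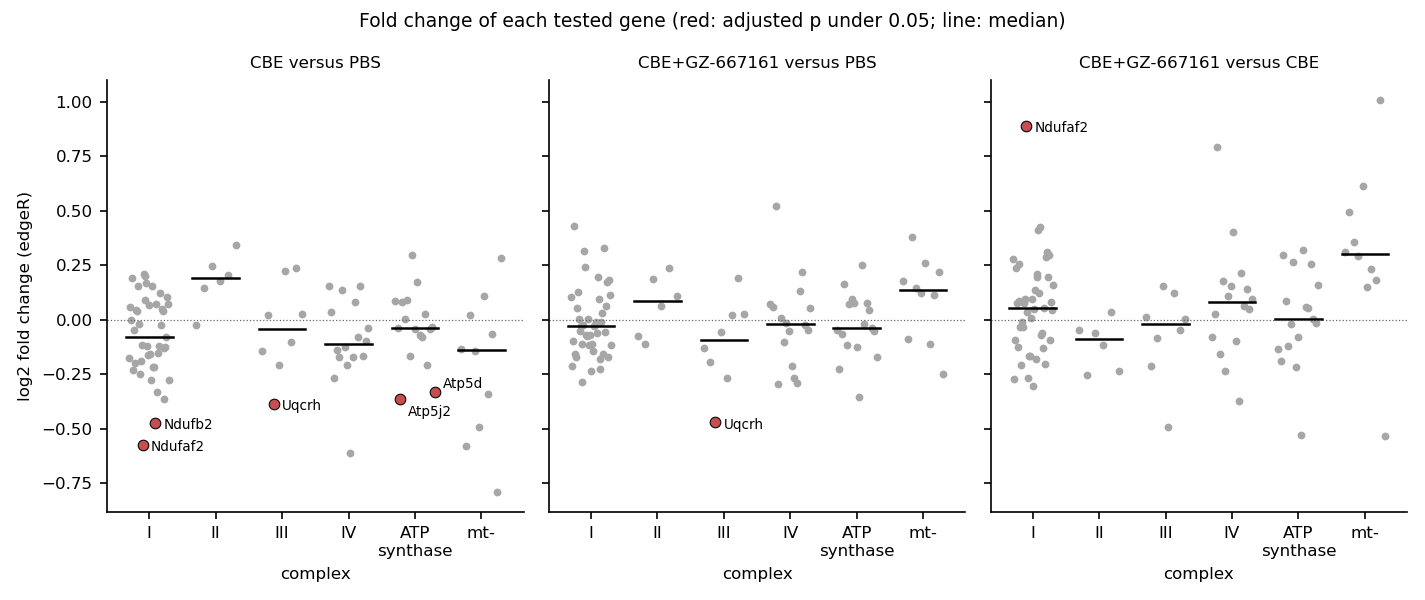
Log2 fold change of each tested gene (vertical axis) by complex (horizontal axis) in the 3 comparisons, with red points for adjusted p under 0.05 (edgeR) and a line at each complex's median. In CBE versus PBS 5 red points lie below 0, in CBE+GZ-667161 versus PBS Uqcrh alone is red and lower, and in CBE+GZ-667161 versus CBE Ndufaf2 alone is red and higher.

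Ndufaf2, an assembly factor that binds complex I during its construction and is not part of the finished complex, had the smallest adjusted p of the 5. Its level was 62.4, 77.2, 59.5 and 73.5 CPM in the PBS samples, in the order of replicates given above. The CBE samples held 49, 52.2, 43.8 and 39.7 CPM and the CBE+GZ-667161 samples 85, 82.1, 86.6 and 86.9 CPM. The 3 groups did not overlap, with the CBE samples lowest, the PBS samples between and the CBE+GZ-667161 samples highest. Against PBS the log2 fold change in CBE was -0.58 ± 0.13 (SE; adjusted p = 0.0070), a fall of 32.9%. CBE+GZ-667161 exceeded CBE by 0.89 ± 0.13 (adjusted p = 0.0065). Between CBE+GZ-667161 and PBS the difference was 0.31 ± 0.12 and did not pass (adjusted p = 0.24, 95% interval 0.057 to 0.57). Within CBE the day 40 samples were the lower pair, and without them neither change passed (adjusted p = 0.15 and 0.11).

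Ndufb2 encodes a supernumerary subunit of the membrane arm of complex I. It stood at 426, 539, 464 and 459 CPM in the PBS samples, 366, 407, 307 and 282 CPM in the CBE samples and 425, 402, 507 and 474 CPM in the CBE+GZ-667161 samples, in the same order of replicates. CBE lay wholly below PBS (-0.47 ± 0.13, edgeR adjusted p = 0.023), with the day 40 CBE samples lowest. In CBE+GZ-667161 it was 0.41 ± 0.13 above CBE, which did not pass (adjusted p = 0.11), and 1 sample of CBE lay within the treated range. The call in CBE versus PBS was lost without PBS replicate 3 or CBE replicates 4 or 6 (log2 -0.42 to -0.38, adjusted p = 0.080 to 0.095). It was also lost without the day 40 CBE samples (log2 -0.27, adjusted p = 0.33), whereas without the day 34 CBE samples the difference was larger (log2 -0.69, adjusted p = 0.0047).

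Both genes that fell in the ATP synthase encode small subunits. Atp5j2 (subunit f, in the membrane-embedded part) was at 910.4, 961, 865 and 859 CPM in PBS, 610.0, 684, 797 and 699 CPM in CBE and 802, 846, 925 and 855 CPM in CBE+GZ-667161. CBE was below both other groups without overlap, with a log2 difference of -0.36 ± 0.099 from PBS (edgeR adjusted p = 0.025), whereas the 0.30 ± 0.099 between CBE+GZ-667161 and CBE did not pass (adjusted p = 0.14). Atp5d (subunit delta, in the central stalk that turns during ATP synthesis) was at 1240.3, 1349, 1205 and 1121 CPM in PBS, 1013, 1023, 964 and 909 CPM in CBE and 968, 1026, 1212 and 1154 CPM in CBE+GZ-667161. It fell by 0.33 ± 0.10 on the log2 scale in CBE (adjusted p = 0.042), while CBE+GZ-667161 overlapped both groups and differed from CBE by 0.16 ± 0.10 (adjusted p = 0.46). For Atp5j2 the call was lost without PBS replicates 2 or 3 or CBE replicates 2 or 6 (log2 -0.36 to -0.31, adjusted p = 0.066 to 0.098), and without the day 34 CBE samples (log2 -0.27, adjusted p = 0.14). For Atp5d it was lost without PBS replicates 2, 3 or 4, CBE replicates 2, 3, 4 or 6 or CBE+GZ-667161 replicates 3 or 4 (log2 -0.35 to -0.26, adjusted p = 0.051 to 0.16). The Atp5d call was also lost without the day 34 CBE samples (log2 -0.40, adjusted p = 0.051), without the day 40 CBE samples (log2 -0.25, adjusted p = 0.32) and with upper quartile scaling (log2 -0.32, adjusted p = 0.065).

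Uqcrh encodes the hinge protein of complex III, an acidic subunit that sits where cytochrome c docks. Its level was 673, 687, 664 and 565 CPM in PBS, 459, 552, 489.5 and 482 CPM in CBE and 423, 516, 388 and 542 CPM in CBE+GZ-667161. Every sample of both CBE-treated groups was below every PBS sample. The log2 fold change was -0.39 ± 0.12 in CBE (edgeR adjusted p = 0.046) and -0.47 ± 0.12 in CBE+GZ-667161 (adjusted p = 0.034), and these comparisons share the PBS samples. CBE+GZ-667161 and CBE differed by -0.086 ± 0.12 (adjusted p = 0.77, 95% interval -0.34 to 0.17). The call in CBE was lost without PBS replicates 2, 3 or 4, CBE replicates 2, 4 or 6 or CBE+GZ-667161 replicate 3 (log2 -0.38 to -0.33, adjusted p = 0.056 to 0.14). It was also lost with Xist as a covariate (log2 -0.38, adjusted p = 0.093), with DESeq2's size factors (log2 -0.38, adjusted p = 0.051), with upper quartile scaling (log2 -0.37, adjusted p = 0.066), and without the day 34 (log2 -0.42, adjusted p = 0.077) or day 40 CBE samples (log2 -0.34, adjusted p = 0.28). That in CBE+GZ-667161 was lost without PBS replicates 2, 3 or 4 or CBE+GZ-667161 replicates 2 or 4 (log2 -0.46 to -0.38, adjusted p = 0.095 to 0.15). Uqcrh and Atp5d each passed under 10 of 23 alternatives in CBE versus PBS, fewer than the other 3 genes.

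**Figure D3:**
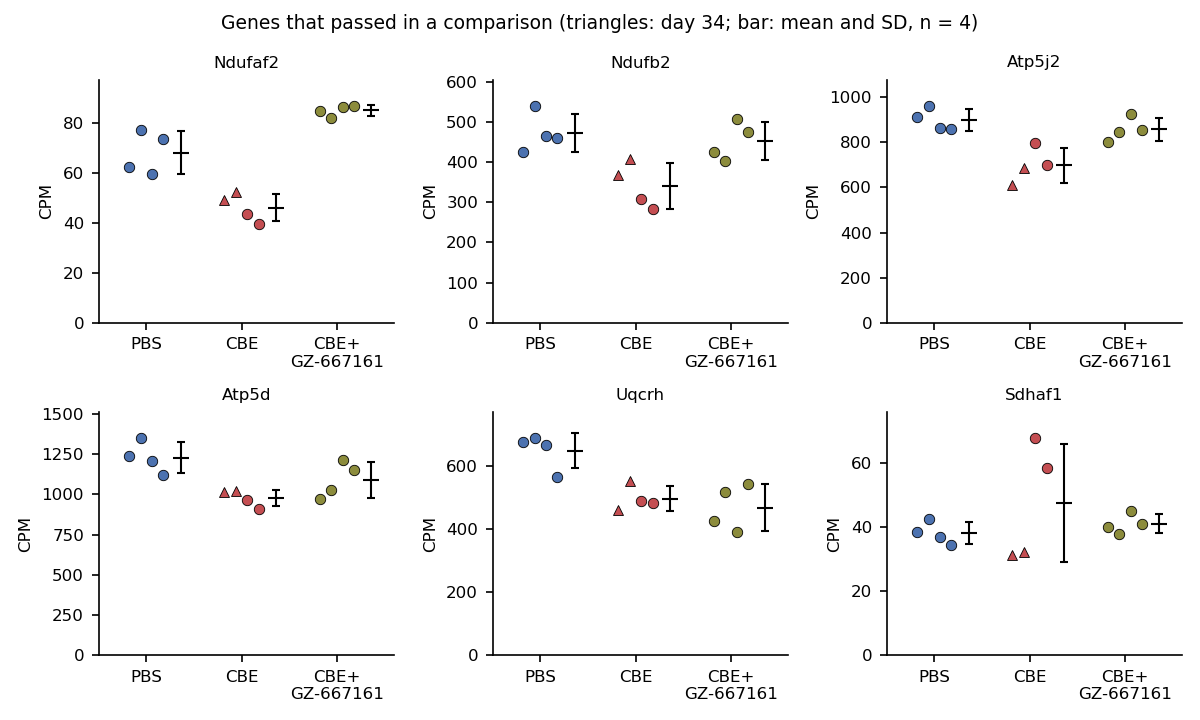
CPM of the 6 genes that passed in any comparison (vertical axes, from 0) by group (horizontal axes). Points are samples, triangles are the day 34 CBE samples, and bars give the mean and SD (n = 4). Ndufaf2 shows 3 separate groups, Uqcrh is low in both groups that received CBE, and Sdhaf1 splits the CBE group by age.

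The 5 genes that fell lie on 5 chromosomes of the mouse build mm10 (GENCODE vM21): Uqcrh at chr4:116066965-116075071, Atp5j2 at chr5:145183698-145192062, Ndufb2 at chr6:39592574-39603382, Atp5d at chr10:80138632-80145818 and Ndufaf2 at chr13:108002715-108158623. Exons of Atp5d, Ndufaf2 and Ndufb2 overlap exons on the other strand, those of Cbarp, of B230220B15Rik, and of Braf and Gm16272. No source used here says whether reads were counted by strand, so reads of such pairs may not have been separated. Exons of Ndufb2 also overlap those of Gm42420 on the same strand, which counting by strand would not separate. None of the 5 had a near-identical copy of its 3' end elsewhere in the annotation, meaning at least 97% identity over at least 100 of the last 500 bases, whereas 15 of the 115 genes did, among them Cox7c, Atp5h, Atp5o and mt-Co1.

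Promoters of respiratory genes are known for binding sites of nuclear respiratory factor 1 (NRF1), GABPA, estrogen-related receptors and YY1. RefSeq windows of 300 bases (250 before to 50 after the gene start, build GRCm38.p6) were found for 80 of the 99 nuclear genes and searched on both strands. The NRF1 core, GCGCA followed by any base and GCGC, was in 20 of the 80 (25%), against 4.78% of all 27025 promoters. YY1 (AAGATGGCG) was in 8 (10%, against 1.49%), the ETS motif of GABPA (CCGGAAGT) in 5 (6.25%, against 4.0%) and the estrogen-related receptor motif (TCAAGGTCA) in 2 (2.50%, against 0.407%). No match to one of these motifs overlapped a match to another in the 80 promoters.

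The 150 bases before the RefSeq start of each gene that fell are shown to let their promoters be read beside 2 NRF1-bearing ones. They run 5′ to 3′ in the direction of the gene, with motif matches in capitals. Atp5d is chr10:80142125-80142274 on the plus strand, Atp5j2 chr5:145191542-145191691 on the minus strand, Ndufaf2 chr13:108158626-108158775 on the minus strand, Ndufb2 chr6:39592415-39592564 on the plus strand and Uqcrh chr4:116075071-116075220 on the minus strand. RefSeq and GENCODE place some starts differently: the windows of Atp5d and Atp5j2 lie inside the GENCODE spans given above, so they are upstream of the RefSeq start only, and that of Uqcrh overlaps the end of its GENCODE span.
Ndufaf2: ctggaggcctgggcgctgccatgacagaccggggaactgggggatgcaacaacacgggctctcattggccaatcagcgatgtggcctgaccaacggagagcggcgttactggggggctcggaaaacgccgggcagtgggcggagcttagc
Ndufb2: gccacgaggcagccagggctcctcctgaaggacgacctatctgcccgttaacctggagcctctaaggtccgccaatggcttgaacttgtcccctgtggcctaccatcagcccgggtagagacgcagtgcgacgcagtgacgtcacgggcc
Atp5j2: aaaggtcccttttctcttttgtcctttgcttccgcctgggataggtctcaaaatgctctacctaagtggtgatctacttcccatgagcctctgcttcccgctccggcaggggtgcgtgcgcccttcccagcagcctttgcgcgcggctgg
Atp5d: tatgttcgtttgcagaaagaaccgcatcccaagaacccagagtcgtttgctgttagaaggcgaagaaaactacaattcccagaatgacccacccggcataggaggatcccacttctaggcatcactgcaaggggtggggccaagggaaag
Uqcrh: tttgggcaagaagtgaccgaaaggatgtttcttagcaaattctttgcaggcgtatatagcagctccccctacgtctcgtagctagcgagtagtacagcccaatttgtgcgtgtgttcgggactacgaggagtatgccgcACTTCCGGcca
None of these 5 windows held the NRF1 letters. Uqcrh held the ETS motif read on the other strand, and Atp5j2 a YY1 match just after its RefSeq start, outside the bases shown. Sdha (chr13:74350241-74350390 on the minus strand) and Ndufb4 (chr16:37654369-37654518 on the minus strand), chosen after the matches were seen, each held the NRF1 letters 3 times, 1 of those in Ndufb4 upstream of the bases shown, and both of their windows partly overlap the GENCODE spans.
Sdha: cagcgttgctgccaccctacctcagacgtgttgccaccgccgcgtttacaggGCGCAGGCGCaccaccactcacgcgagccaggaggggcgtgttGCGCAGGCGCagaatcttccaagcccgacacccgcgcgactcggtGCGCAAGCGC
Ndufb4: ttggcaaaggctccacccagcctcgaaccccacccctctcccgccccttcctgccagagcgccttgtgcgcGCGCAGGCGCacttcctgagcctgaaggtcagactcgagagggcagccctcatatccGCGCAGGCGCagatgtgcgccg
Sdha, the flavoprotein of complex II that oxidises succinate, was at 309 ± 12.1 CPM in PBS and 303 ± 13.9 in CBE (SD, n = 4). Over tested genes the median log2 fold change in CBE versus PBS was -0.033 for 18 with the NRF1 letters and -0.079 for 58 without. A match is a run of letters only.

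The catalytic and electron-carrying subunits of the nuclear set did not pass in CBE versus PBS. In complex I the iron-sulfur subunit Ndufs1 was at 116 ± 7.84 CPM in PBS and 119.5 ± 2.11 in CBE (SD, n = 4), and the NADH-binding Ndufv1 at 396 ± 31.9 and 390.2 ± 54.7. The accessory subunits Ndufs4 and Ndufab1 differed by 0.070 ± 0.12 and 0.041 ± 0.13 on the log2 scale (SE). The 95% interval of the difference ran from -0.17 to 0.25 for Ndufs1 and from -0.25 to 0.22 for Ndufv1. The 8 assembly factors of complex I had a median of -0.22, with Ndufaf2 the one that passed. The 28 tested supernumerary subunits ranged from -0.47 to 0.20 with a median of -0.014, and 1 passed, Ndufb2. Ndufaf1 among the assembly factors was 0.19 ± 0.18, from 18.9 ± 3.24 CPM in PBS to 21.7 ± 3.0 in CBE.

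Complex II, which is also the succinate dehydrogenase of the citric acid cycle, had no gene that passed in CBE versus PBS. Sdha differed by -0.026 ± 0.092, the iron-sulfur subunit Sdhb by 0.18 ± 0.098, and the membrane anchors Sdhc and Sdhd by 0.25 ± 0.16 and 0.14 ± 0.13. Among subunits of complex III, the core proteins Uqcrc1 and Uqcrc2 differed by 0.019 ± 0.10 and 0.23 ± 0.13, and the Rieske iron-sulfur protein Uqcrfs1 by 0.024 ± 0.11. Uqcrb differed by 0.24 ± 0.47, but it was at only 5.08 ± 1.93 CPM in PBS and has a near-identical copy, so its counts are uncertain. Adjusted p-values of these 8 genes in edgeR ran from 0.28 to 0.93.

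None of the 16 tested genes of complex IV, cytochrome c oxidase, passed in CBE versus PBS by edgeR, DESeq2 or limma-voom, and 0 had an unadjusted p under 0.05. Cox4i1, the common form of the largest nuclear subunit, was at 3235, 3674, 3105 and 3010.0 CPM in PBS and 3192, 2892, 4335 and 4048 CPM in CBE. The day 40 CBE samples were the higher pair for this gene. Cox5a, Cox6a1, Cox7a2, Cox8a and Ndufa4 (first assigned to complex I and now counted with complex IV) differed by -0.080 ± 0.12, 0.036 ± 0.12, -0.14 ± 0.13, -0.040 ± 0.12 and 0.080 ± 0.19. Cox6b1, Cox6c and Cox7c were lower in every CBE sample than in any PBS sample, as were 7.00% of all genes tested. Their log2 differences were -0.21, -0.17 and -0.17, with edgeR adjusted p of 0.23, 0.35 and 0.35. The gaps were narrow for Cox6b1 (823.7 CPM in CBE replicate 3, 824.1 in PBS replicate 5) and Cox7c (663.9 in CBE replicate 4, 666.4 in PBS replicate 5). Cox7c also has near-identical copies, so its counts are uncertain.

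Tissue-restricted paralogs of complex IV, most of them known from heart and skeletal muscle, testis or hypoxic tissue, were at low levels. Cox6a2 was at 41.4 ± 5.16 CPM in PBS, 46.6 ± 15.6 in CBE and 48.2 ± 8.65 in CBE+GZ-667161 (SD, n = 4). Cox7a1 was at 11.1 ± 4.58, 7.68 ± 2.19 and 9.82 ± 3.32, and Ndufa4l2, a hypoxia-responsive paralog, at 4.88 ± 0.765, 5.39 ± 1.45 and 4.56 ± 0.862. Cox4i2 and Cox8b were untested, at 1.74 ± 0.576 and 2.15 ± 0.591 CPM in PBS. The 4 paralogs tested did not pass in any comparison by edgeR, DESeq2 or limma-voom, although 2 had an unadjusted p under 0.05 between the CBE ages.

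In the ATP synthase the catalytic beta subunit Atp5b was at 2038, 2387, 2164 and 2078 CPM in PBS and 1841, 1903, 2293 and 2173 CPM in CBE. Its alpha partner Atp5a1 was at 1147, 1349, 1198 and 1174 CPM and 1088, 1201, 1489 and 1390.3 CPM. Both overlapped between groups, differing by -0.078 ± 0.096 and 0.086 ± 0.11. The 3 genes for the membrane c-ring, Atp5g1, Atp5g2 and Atp5g3, differed by -0.034 ± 0.13, 0.17 ± 0.44 and 0.080 ± 0.13. Atp5g2 was at only 1.59 to 17.8 CPM over all samples and has a near-identical copy, so its counts are uncertain. The 15 tested subunits as a whole ranged from -0.36 to 0.29 with a median of -0.039. EdgeR adjusted p-values of these 5 genes ran from 0.66 to 0.90.

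The authors' deposited table of comparisons calls the same 5 genes lower and none higher in CBE versus PBS, at an adjusted p under 0.05 and with its sign turned to read CBE over PBS. For CBE+GZ-667161 versus PBS the authors' deposited table calls Uqcrh lower. For CBE+GZ-667161 versus CBE the authors' deposited table calls Ndufaf2 higher (log2 fold change 0.89, adjusted p = 2.69e-06) and Uqcrc2 lower (-0.50, adjusted p = 0.0154).

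Among the mitochondrially encoded genes, mRNAs for complexes I, III and IV, rRNAs and tRNAs were counted. Rows for 7 protein genes were present (mt-Nd1, mt-Nd2, mt-Nd4, mt-Nd5, mt-Nd6, mt-Co1 and mt-Cytb), and mt-Co2, mt-Co3 and mt-Atp6 were not analysed here. All mt- counts together were 0.255% to 0.445% of a sample. Of the protein counts mt-Nd4 made up 54.3% to 69.8% and mt-Cytb 18.7% to 38.7%, so sums over these genes follow this pair. None of the 10 tested mt- genes passed in any comparison among the 3 groups by edgeR, and DESeq2 and limma-voom called none either. With no adjustment (p under 0.05) 2 were lower in CBE than in PBS, mt-Nd4 and mt-Cytb. At the same level 1 was higher in CBE+GZ-667161 than in PBS and 4 were higher than in CBE. Of all genes tested, 24.8% reached this level in either direction in CBE versus PBS. The share was 13.1% in CBE+GZ-667161 versus PBS and 16.5% in CBE+GZ-667161 versus CBE.

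mt-Nd4, a proton-pumping core subunit of complex I, was at 2700.0, 1649, 1813 and 1495 CPM in PBS, 1403, 1652, 1338 and 1058 CPM in CBE and 1487, 2525, 2495 and 1835 CPM in CBE+GZ-667161. The CBE samples sat at the low end of both other groups and overlapped them. The log2 difference was -0.49 ± 0.20 for CBE against PBS (edgeR adjusted p = 0.12) and 0.61 ± 0.20 for CBE+GZ-667161 against CBE (adjusted p = 0.12). mt-Cytb, the cytochrome b of complex III, was at 883, 1176, 663 and 861 CPM in PBS, 605, 529.9, 744 and 519 CPM in CBE and 687, 1066, 1111 and 504 CPM in CBE+GZ-667161. CBE replicate 4 lay above PBS replicate 4, and the difference was -0.58 ± 0.22 (adjusted p = 0.10). With Xist as a covariate both passed in CBE versus PBS (adjusted p = 0.036 and 0.032).

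The other mt- mRNAs were scarcer in the table. All 6 tested mt- protein genes had fitted differences above 0 in CBE+GZ-667161 against CBE, and 4 of the 6 had one below 0 in CBE against PBS. Whether the scarcer mRNAs differed from mt-Nd4 and mt-Cytb in this was not tested. mt-Nd1 was at 144 ± 29.1 CPM in PBS, 146 ± 33 in CBE and 187 ± 11.1 in CBE+GZ-667161 (SD, n = 4). mt-Nd2 was at 51 ± 4.07, 46.6 ± 13.7 and 57 ± 19.7, and mt-Nd5 at 41.1 ± 11.7, 44.6 ± 9.3 and 48.9 ± 15.7. mt-Co1, a catalytic core subunit of complex IV, was at 19 ± 7.13, 17 ± 3.72 and 21.2 ± 5.55, and it has a near-identical copy elsewhere. mt-Nd6, the one protein gene that is encoded on the other strand of the mitochondrial genome, had 25 counts in all and was not tested. The rRNAs mt-Rnr1 and mt-Rnr2 were at 277 ± 109 and 470.3 ± 140.1 CPM in PBS, 219 ± 24.7 and 449 ± 52.2 in CBE, and 258 ± 72 and 509 ± 130.2 in CBE+GZ-667161. Differences from PBS in CBE were -0.34 ± 0.23 and -0.068 ± 0.20 for these 2 genes (edgeR adjusted p = 0.38 and 0.87). Of 7 tRNA genes the 2 tested, mt-Tp and mt-Tv, were at 4.35 ± 2.53 and 5.76 ± 1.2 CPM in PBS, and 2.6 ± 1.07 and 7.05 ± 3.4 in CBE.

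**Figure D4:**
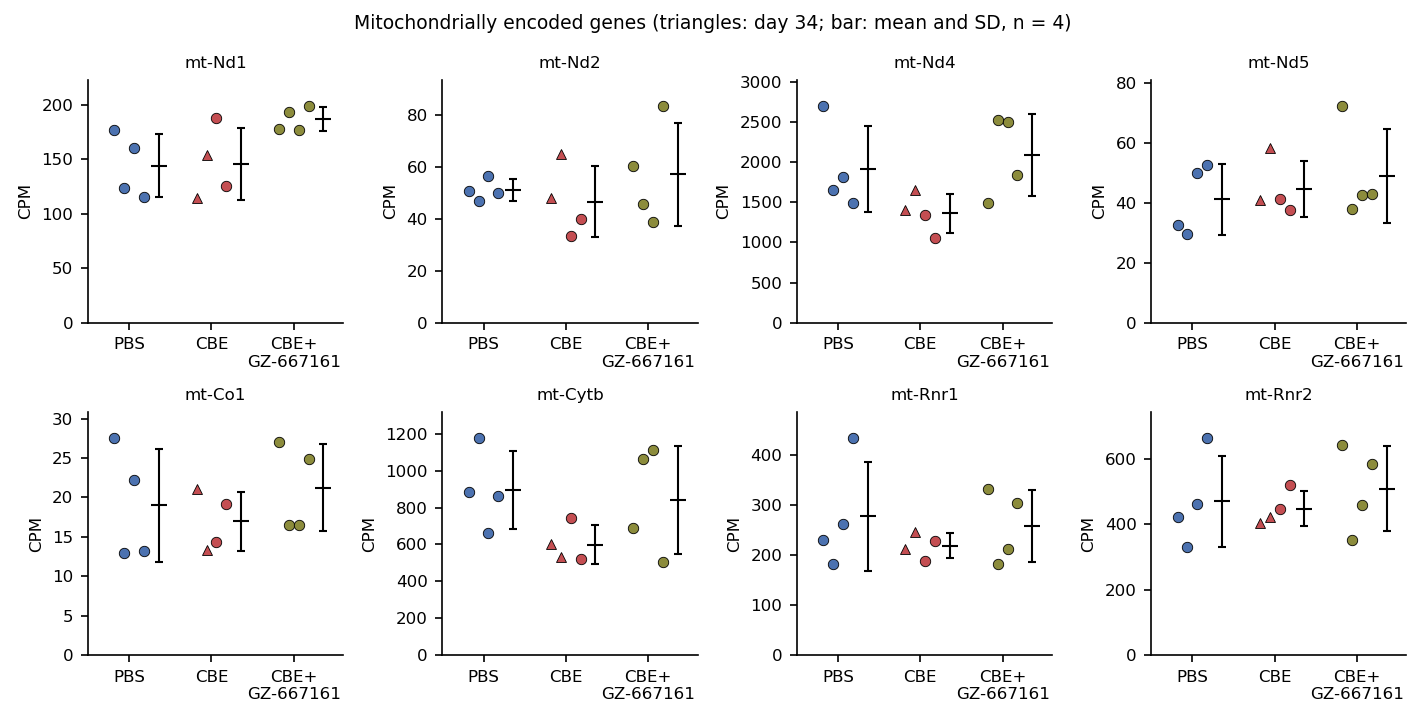
CPM of 6 mt- protein genes and the 2 rRNA genes (vertical axes, from 0, with a scale for each gene) by group (horizontal axes), with points for samples, triangles for day 34 CBE samples and bars for the mean and SD (n = 4). The CBE samples are low for mt-Nd4 and mt-Cytb and overlap the PBS samples for every gene shown. For mt-Nd1 the CBE+GZ-667161 samples lie above all PBS samples.

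Mitochondrial and nuclear transcripts are made from separate genomes, and counts of the mt- protein genes were described per 1000 nuclear respiratory counts. The mt- sum is mostly mt-Nd4 and mt-Cytb and does not include mt-Co2, mt-Co3 or mt-Atp6. It therefore covers only part of the mitochondrial transcripts. This ratio was 95.4, 65.2, 64.9 and 65.3 in the PBS samples, 58.1, 63, 53.2 and 42.9 in the CBE samples and 65.3, 91.5, 85.6 and 66.3 in the CBE+GZ-667161 samples. Every CBE sample was below every sample of the other groups, and the day 40 CBE samples were lowest. The mean was 72.7 ± 15.2 in PBS, 54.3 ± 8.59 in CBE and 77.2 ± 13.4 in CBE+GZ-667161 (SD, n = 4), so the CBE mean was 74.7% and the treated mean 106% of the PBS mean. PBS replicate 2 stood far above the other 3 PBS samples, and without it these shares were 83.4% and 119%. The gap was narrow, between 63.0 in CBE replicate 3 and 64.9 in PBS replicate 4, and it closed without either of the abundant mRNAs. Without mt-Nd4 the ratio was 22.3 to 29.8 in PBS and 17.7 to 23 in CBE, and without mt-Cytb 40.0 to 73.7 and 30.5 to 49.5, with overlap in both cases, and these versions were added after the data were seen. No p-value is given, since the genes were chosen with results known. Beside it, the summed neuron markers were 7550.2 to 7679 CPM in PBS, 5376 to 6403 in CBE and 6069 to 7227 in CBE+GZ-667161, and their part in the ratio was not tested.

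**Figure D5:**
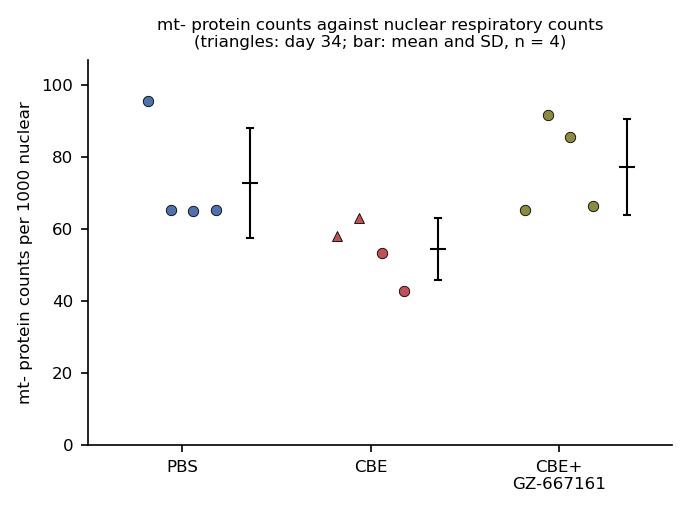
Counts of mt- protein genes per 1000 counts of nuclear respiratory genes (vertical axis, from 0) by group (horizontal axis), with points for samples, triangles for day 34 CBE samples and bars for the mean and SD (n = 4). The 4 CBE samples lie at 42.9 to 63, below the PBS samples at 64.9 to 95.4, of which replicate 2 stands apart.

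Between CBE+GZ-667161 and PBS 1 respiratory gene of 100 passed, Uqcrh, lower by 0.47 ± 0.12 on the log2 scale (edgeR adjusted p = 0.034), where 0.333% of all genes were called lower. No gene was called higher, against 3.11% of all genes, and DESeq2 and limma-voom also called 0 higher and 1 lower. At an unadjusted p under 0.05, 5 were higher and 5 lower, beside 13.1% of all genes in either direction. The median was -0.025 beside -0.00024 over all genes. In 4 genes every CBE+GZ-667161 sample was above every PBS sample (Ndufaf2, Ndufaf6, Sdhaf4 and mt-Nd1) and in 2 below (Uqcrh and Ndufv2), where 6.65% and 3.12% of all genes separated so. The catalytic subunits Atp5b, Atp5a1, Sdha and Ndufs1 differed by -0.020 ± 0.096, -0.046 ± 0.11, -0.074 ± 0.091 and 0.0045 ± 0.098. The call on Uqcrh was lost without the day 40 CBE samples, which enter through the shared estimate of spread, and with Xist as a covariate.

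In CBE+GZ-667161 against CBE, 1 gene of 100 was higher, Ndufaf2, and none lower, where 0.444% and 0.832% of all genes were called. Ndufaf2 was 85.3% higher, and this comparison shares the CBE samples with that against PBS. At an unadjusted p under 0.05, 14 genes were higher and 5 lower (16.5% of all genes in either direction), and limma-voom called 0 lower but DESeq2 called Ndufv2 and Uqcrc2 lower. Every CBE+GZ-667161 sample was above every CBE sample in 5 genes and below in 2, where 4.11% and 3.98% of all genes did so. The median was 0.050 beside 0.0080 over all genes. The 8 assembly factors of complex I were all above 0 (median 0.20), as were the 6 tested mt- protein genes (median 0.33), while the complex I core subunits had a median of -0.034. Genes measured in the same samples can move together, so these signs are not independent and were not tested.

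Uqcrc2, a core subunit of complex III, was at 103, 133, 107 and 115 CPM in PBS, 105, 137, 154 and 138 CPM in CBE and 87, 104, 89.99 and 100.2 CPM in CBE+GZ-667161. The CBE+GZ-667161 samples were all below the CBE samples, at a log2 difference of -0.49 ± 0.13, which did not pass in edgeR (adjusted p = 0.068). Exons of Uqcrc2 overlap those of Pdzd9 on the other strand. Ndufv2, a core subunit of complex I that carries an iron-sulfur cluster, was at 282, 333, 292 and 310.3 CPM in PBS, 335, 329.9, 317 and 295 CPM in CBE and 255, 269.7, 242 and 267 CPM in CBE+GZ-667161. Its CBE+GZ-667161 samples were below all others, at a log2 difference of -0.30 ± 0.096 from CBE (edgeR adjusted p = 0.12).

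Within the CBE group age was set apart by a fit of 4 groups, with 2 samples at day 40 and 2 at day 34. Of 102 respiratory genes tested, 1 was higher at day 40, Sdhaf1, and none lower by edgeR, where 0.224% and 0.389% of all genes were called. DESeq2 called Cox4i1 and Sdhaf1 higher and limma-voom none, neither called any lower, and at an unadjusted p under 0.05, 8 were higher and 5 lower (15.1% of all genes in either direction). Separation of 2 samples from 2 is common (24.2% of all genes higher and 23.5% lower), and 34 respiratory genes were separated upwards and 19 downwards. The median was 0.039 beside -0.025 over all genes. Totals at day 34 were the lowest of the series, and age, depth and days of treatment cannot be told apart here.

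Sdhaf1 encodes an assembly factor that helps insert iron-sulfur clusters into Sdhb. It was at 31.3 and 32.2 CPM in the day 34 CBE samples and 67.6 and 58.3 CPM in the day 40 CBE samples. PBS samples held 38.4, 42.3, 36.9 and 34.3 CPM and CBE+GZ-667161 samples 40.0, 37.7, 44.8 and 41 CPM, all at day 40. The older CBE samples were thus the highest of all 12 and the younger ones the lowest. The day 40 samples exceeded the day 34 samples by 0.96 ± 0.18 on the log2 scale (edgeR adjusted p = 0.030), and the call was lost when any 1 of the 4 CBE samples was left out. Sdhaf1 lies at chr7:30321406-30323895, and its exons overlap E130208F15Rik on the other strand. Sdhaf4, which binds the flavinated Sdha before it joins Sdhb, differed by 0.54 ± 0.18 (adjusted p = 0.17) and Cox4i1 by 0.44 ± 0.13 (adjusted p = 0.12).

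Neighbouring pathways were examined with lists of genes chosen by function. Of 20 genes of the citric acid cycle and pyruvate entry, 1 was higher and none lower in CBE versus PBS (median -0.10). That gene was Idh2, the NADP-dependent mitochondrial isocitrate dehydrogenase, at 45.3 ± 2.24 CPM in PBS, 75.3 ± 13.1 in CBE and 41.3 ± 4.2 in CBE+GZ-667161 (SD, n = 4). It rose by 0.74 ± 0.14 in CBE (edgeR adjusted p = 0.0017) and was -0.88 ± 0.14 in CBE+GZ-667161 against CBE (adjusted p = 0.010). At an unadjusted p under 0.05, 1 gene of this list was lower, and DESeq2 and limma-voom called Idh2 alone.

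Of 19 genes for electron carriers and metabolite exchange, 2 were lower in CBE than in PBS and none higher (median 0.057). Cycs, the cytochrome c that links complexes III and IV, went from 33.1 ± 2.97 to 22.4 ± 5.88 CPM (-0.58 ± 0.17, edgeR adjusted p = 0.041). Ckmt1, the mitochondrial creatine kinase that passes the phosphate of new ATP to creatine, went from 311 ± 32.6 to 200.1 ± 36.9 CPM (-0.64 ± 0.13, adjusted p = 0.0044). DESeq2 and limma-voom gave the same pair. Of 21 genes of glycolysis 1 was lower in CBE versus PBS, Eno2 (-0.36 ± 0.099, adjusted p = 0.024), and 1 was lower in CBE+GZ-667161 versus CBE, Aldoc (-0.42 ± 0.099, adjusted p = 0.046). Eno2 is also one of the neuron markers and Aldoc one of the astrocyte markers, whose sums moved between the same groups, and that overlap was not tested further. The list had a median of -0.11 in CBE versus PBS.

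Of 25 genes of mitochondrial dynamics and quality control 1 was lower in CBE versus PBS, Dnm1l, the dynamin that divides mitochondria (-0.41 ± 0.12, edgeR adjusted p = 0.045; list median 0.019). None of 30 other assembly genes and none of 21 genes of mitochondrial DNA expression and biogenesis passed in edgeR, with medians of -0.13 and -0.10. At an unadjusted p under 0.05, 3 of the assembly genes were higher and 5 lower, and 0 and 2 of the biogenesis genes. DESeq2 called 1 assembly gene higher and 1 lower and no biogenesis gene, and limma-voom called none in either list. In CBE+GZ-667161 versus PBS no gene of the 6 lists passed by edgeR, DESeq2 or limma-voom, with 1 to 5 per list at an unadjusted p under 0.05. Coa3, a complex IV assembly factor, was lower at day 40 than at day 34 within CBE (-0.67 ± 0.14, edgeR adjusted p = 0.044). As background for the adjusted calls, 6.95% of all genes tested were called higher and 4.04% lower in CBE versus PBS. In CBE+GZ-667161 versus PBS these shares were 3.11% and 0.333%, and in CBE+GZ-667161 versus CBE 0.444% and 0.832%. Between the CBE ages 0.389% were called lower. At an unadjusted p under 0.05 the shares in either direction were 24.8% in CBE versus PBS and 13.1% in CBE+GZ-667161 versus PBS.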

How the data were processed

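Libraries of 12 samples of whole brain were built by a bulk adaptation of MARS-seq, which counts 3' ends (labels' protocols). The authors deposited counts for each gene symbol as whole numbers, not normalized. The submitters' processing notes name cutadapt, HISAT 0.1.6, HTSeq and DESeq2 with build mm10 for the work of the authors, without roles. Handling of molecular identifiers, annotation, strand and filters is unstated. The authors' normalized signal, deposited beside the counts, was not used. The authors' deposited table of log2 fold changes and p-values was used only where named.

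Of 16505 entries 23 had dates for names (0.266% to 0.347% of counts) and were left out, which left 16482 genes, 5 of them without a count. Genes were kept by filterByExpr (minimum count 10, minimum total 15), scaled by TMM and fitted in edgeR 4.0.16 under R 4.3.3 with the quasi-likelihood functions glmQLFit and glmQLFTest. One fit held the 3 groups (12623 genes), and another held 4 groups to compare the CBE ages (13372 genes). P-values were adjusted over all genes by Benjamini and Hochberg (threshold 0.05), and fold changes carry standard errors. The common biological coefficient of variation was 0.193. Total counts set the precision, and the lowest, in the day 34 CBE samples, widen the error of low genes. Samples of a group differed beyond counting noise (chi-square per degree of freedom 3.53 to 13.3). Comparisons share samples. The alternatives were other scalings, filters, DESeq2 1.42.0, limma-voom (limma 3.58.1), covariates and left-out samples. The test was tried on simulated counts. The 115 genes, the pathway lists and the markers were chosen with earlier results of these data known. Genes named were those that passed, the mt- protein genes, a list of catalytic, core and paralog genes, and up to 3 passing genes per pathway list; 1 gene of these is not reported here. Positions came from GENCODE vM21, and promoters from RefSeq (GRCm38.p6).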

Additional observations from a re-analysis of the deposited data

Results flagged for a closer look

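Each group of 4 samples was searched for a single sample far from the others by Dixon's test, and 3 of 81 groups gave one, where chance gives about 1 in 20. mt-Nd5 was at 72.2 CPM in CBE+GZ-667161 replicate 2 and at 37.9 to 42.8 in the other 3 samples of that group. mt-Tm was at 4.31 CPM in CBE replicate 2 and at 1.32 to 1.67 in the others. The counts of mt- protein genes per 1000 nuclear respiratory counts were 95.4 in PBS replicate 2 and 64.9 to 65.3 in the other PBS samples. Sdhaf1 differed between the CBE samples of day 40 and of day 34 by 0.96 on the log2 scale (edgeR adjusted p = 0.030), a difference tested on 2 samples against 2.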

How the results depend on the processing

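Of the 5 respiratory genes lower in CBE than in PBS, 3 were called with upper quartile scaling, 2 without the day 34 CBE samples and 1 without the day 40 CBE samples, and leaving out 1 sample at a time gave 1 to 5. None was higher, except 1 without the day 34 CBE samples (Sdhaf1). In CBE+GZ-667161 versus PBS the 1 lower call became 0 with only the groups compared, without the day 40 CBE samples and with Xist as a covariate, and 0 to 1 with 1 sample left out. In CBE+GZ-667161 versus CBE the 1 higher call became 2 without the day 34 and 0 without the day 40 CBE samples. The 0 lower calls became 2 with DESeq2, 2 without the day 34 CBE samples and 0 to 1 with 1 sample left out (Uqcrc2 without CBE replicate 2). Between the CBE ages the 1 higher call became 2 with DESeq2, 0 with limma-voom and 0 to 1 with 1 sample left out, where a lone sample is assumed to vary like the other groups. The cause of these shifts was not tested. With replicate numbers as a block, the lower calls in CBE versus PBS went from 5 to 0, but same-numbered samples correlated by -0.078 to 0.24 in their deviations, so the numbers were not taken to pair samples. Single genes were followed only if their unadjusted edgeR p was under 0.05 in the main fit. Reversals of smaller changes were therefore not looked for. No followed result changed direction. For the 46 followed results that did not pass, 989 of 998 alternatives left them on the same side. The summed levels moved by less than 1 SD under each alternative run. The 15 untested genes had too few counts to be kept, and the reason for their low counts was not tested.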

Other observations

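In complex I, 5 genes had an unadjusted p under 0.05 in CBE versus PBS and did not pass the adjustment over all genes (edgeR adjusted p = 0.14 to 0.19). Ndufa10, an accessory subunit of the matrix and membrane junction, was at 359 ± 35.1 CPM in PBS, 302 ± 10.4 in CBE and 295 ± 31.1 in CBE+GZ-667161 (SD, n = 4). Ndufa5 was at 409 ± 33.1, 338 ± 40.2 and 370.4 ± 51.7 CPM. Ndufs8, a core subunit that carries iron-sulfur clusters, was at 278 ± 25.9, 229.7 ± 26 and 257 ± 25.4 CPM. Ndufc1 was at 264 ± 35.1, 210.4 ± 35.7 and 282 ± 55.1 CPM, and the assembly factor Ndufaf4 at 28.9 ± 3.5, 22.6 ± 2.29 and 27.6 ± 5.03 CPM. Among ATP synthase genes Atp5e, the epsilon subunit of the central stalk, was at 470.5, 570.4, 431 and 464 CPM in the CBE samples and 638, 614, 580.3 and 578 CPM in the CBE+GZ-667161 samples, which did not overlap (0.32 ± 0.12, edgeR adjusted p = 0.19). These genes were named after their values were seen.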
